A study of Mus musculus with 50 samples.

Results

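The 8 genes described here, Hmga1, Hmga2, Lin28a, Lin28b, Igf2bp1, Igf2bp2, Igf2bp3 and Trim71, make up the Hmga and Lin28 axis, and they were taken by gene symbol. All 8 were found in each of the 4 expression tables, among 17043 genes listed in the FPKM table and 55421 in each TPM table. RNA-seq was run on mouse embryonic stem (ES) cells and on epiblast-like cells (epiLC), the cells that ES cells form in culture when they are taken toward the state of the early post-implantation embryo. The study asks which developmental genes β-catenin and the proteins bound to it control, and Hmga2 is also a ChIP target of the series. Of 50 samples, 32 RNA libraries were used, and 18 ChIP and input samples were not analysed here.

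The groups were the following. V6.5 ES cells, a mouse ES line, were kept in 2i, a medium that keeps them naive by blocking the kinases MEK and GSK3. They carried short hairpins (shRNA) against GFP (shGFP, the mock control, n = 6), β-catenin (shBcat, n = 2), E2F6 (shE2F6, n = 2) or HP1r (shHP1r, n = 2), and their values are FPKM. A line labelled QKO, whose genotype the labels do not spell out, was in 2i with shGFP or shBcat at 48 h (n = 3 each, TPM). Another TPM table holds V6.5 in 2i and V6.5-derived epiLC at 24 and 48 h (n = 2 each). The last TPM table holds epiLC with shBcat, sampled at 24, 48 and 96 h, and control epiLC sampled at 96 h (n = 2 each), and no hairpin is named for these controls. FPKM and TPM are both transcript levels per length. Each table was normalized on its own, so every test stays within 1 table.

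Hmga1 and Hmga2 are small architectural proteins that bind AT-rich DNA in chromatin. Lin28a and Lin28b are RNA-binding proteins that block the maturation of let-7 microRNAs, and let-7 in turn represses Hmga2, Lin28, the Igf2bp genes and Trim71. Igf2bp1, Igf2bp2 and Igf2bp3 bind and stabilise messenger RNAs, Igf2 among them, and Hmga2 is known to raise Igf2bp2 transcription. Trim71 (also called Lin41) is a ubiquitin ligase and repressor of messenger RNAs that is high in early embryos. In the mouse epiblast the Lin28 genes are known for their place in the passage from naive to primed pluripotency.

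Because the axis is read through 1 shared microRNA seed, 4 mature let-7 family members are shown, with the seed (bases 2 to 8) in capitals, from RefSeq on GRCm38.p6. The other 5 family arms in that table carry the same seed.
mmu-let-7a-5p: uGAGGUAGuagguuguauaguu
mmu-let-7d-5p: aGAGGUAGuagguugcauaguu
mmu-let-7g-5p: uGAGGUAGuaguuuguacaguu
mmu-miR-98-5p: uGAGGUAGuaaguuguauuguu
All 9 arms hold the seed GAGGUAG, and outside it the others differ from let-7a at 1 to 4 bases. The levels of these microRNAs were not measured by these libraries. The 12 let-7 family loci named in the TPM tables were listed at 0 in all libraries of both epiLC tables, which says nothing of the mature forms.

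The members lie on 7 chromosomes of GRCm38.p6, all as protein-coding genes. Hmga2 (ENSMUSG00000056758) spans chr10:120361268-120476469 and Lin28b (ENSMUSG00000063804) chr10:45376617-45486314. Lin28a (ENSMUSG00000050966) lies at chr4:134003330-134019196, Hmga1 (ENSMUSG00000046711) at chr17:27556574-27563672 and Trim71 (ENSMUSG00000079259) at chr9:114511268-114564369. Igf2bp1 (ENSMUSG00000013415) lies at chr11:95957163-96005944, Igf2bp2 (ENSMUSG00000033581) at chr16:22059009-22163299 and Igf2bp3 (ENSMUSG00000029814) at chr6:49085218-49215469.

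The promoters of Hmga2 and Igf2bp2 are shown because these 2 members were the ones that passed the test between shBcat and control epiLC at 96 h. Each stretch runs from 250 bases before to 10 bases after the annotated start, on the minus strand as transcribed, and capitals mark letters that match GCGGGA, an E2F-type motif, on either strand.
Hmga2, chr10:120476460-120476719: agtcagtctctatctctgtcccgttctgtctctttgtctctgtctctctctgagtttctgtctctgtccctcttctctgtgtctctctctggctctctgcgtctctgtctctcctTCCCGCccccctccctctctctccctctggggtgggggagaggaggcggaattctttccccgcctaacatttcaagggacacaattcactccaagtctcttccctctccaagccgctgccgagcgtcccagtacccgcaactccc
Igf2bp2, chr16:22163290-22163549: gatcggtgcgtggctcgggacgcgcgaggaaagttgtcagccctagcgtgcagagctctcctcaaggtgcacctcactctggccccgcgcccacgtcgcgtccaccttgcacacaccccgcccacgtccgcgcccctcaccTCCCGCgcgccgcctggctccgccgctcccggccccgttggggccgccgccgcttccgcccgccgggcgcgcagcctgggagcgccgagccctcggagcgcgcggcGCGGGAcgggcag
RefSeq gave a 300-base promoter for 7 members, and the motif lay in those of Hmga2 (1 match) and Igf2bp2 (2 matches), against 20.0% of 32851 promoters of that length. A TCF/LEF-type motif, CTTTGA on either strand, lay only in that of Lin28a among the 7, against 16.0% of all promoters. The E-box CACGTG, which reads the same on both strands, lay in those of Lin28b (1 match) and Igf2bp3 (2 matches), against 7.15%. These 3 motifs share no letters where they were found, and Hmga1 and Trim71 held none of them.

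Depth is unknown for every library, since neither unit keeps read totals. Whether replicates were separate cultures is not stated in the labels, so the p-values rest on a spread among libraries that may be technical. In the FPKM table the shGFP libraries fell into adjacent pairs (1 and 2, 3 and 4, 5 and 6), with a median difference per gene of 0.05 to 0.07 on the log2 scale within pairs and 0.16 to 0.37 between them. Mitochondrial transcripts took 19.3% to 22.9% of the summed FPKM in shGFP 3 and 4 and both shE2F6 libraries, and 6.23% to 10.3% in the others. The targeted genes were lower where the labels say so: Ctnnb1, which encodes β-catenin, was at 6.58 to 6.61 FPKM in shBcat against 88.8 to 134 in shGFP, E2f6 at 2.57 to 3.54 against 8.98 to 10.7, and Cbx3, the HP1γ gene, at 6.6 to 7.25 against 56.7 to 71.2. In the TPM tables Ctnnb1 was at 48.4 to 82.4 against 490 to 528 in QKO, and at 142 to 145 against 441 to 448 in epiLC at 96 h. The 12 naive pluripotency markers summed to 1527 and 1532 TPM in 2i and to 270 to 317 in control epiLC, where Fgf5, a primed marker, went from 0.02 to 26.4 TPM. In these bulk libraries fewer cells of a type and less RNA per cell cannot be told apart.

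The control time course asked when each gene of the axis moved as V6.5 cells left 2i. At 24 h all 8 members had changed, with 7 up and Igf2bp2 down, when 76.0% of the 16559 genes tested passed the same threshold (limma, adjusted p under 0.05), 36.2% up and 39.8% down. The median change was 0.54 over the members and -0.04 over all genes tested, on the log2(TPM + 1) scale that is used for every TPM change given here. The members moved in 2 steps: the Lin28 genes and Hmga1 at 24 h, and Hmga2 and Igf2bp3 mainly between 24 and 48 h. With a background this high the call itself sets little apart, and the sizes and their timing are given below.

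Lin28a was at 12.01 and 12.62 TPM in 2i, 236 and 235 at 24 h, and 243 and 246 at 48 h. All epiLC libraries stood far above the 2i libraries and the 48 h values were slightly above those at 24 h. Lin28a rose by 4.15 (SE 0.03, limma adjusted p = 1.91e-08) at 24 h, a ratio of means of 19.1, and from 24 to 48 h the difference was 0.05 (adjusted p = 0.19). That second step turned to -0.10 (adjusted p = 0.0283) when libraries were scaled by the median of ratios, which moved the median of all genes by -0.13.

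Lin28b, the paralogue that acts mainly in the nucleus, was at 8.44 and 8.57 TPM in 2i, 24.9 and 25.1 at 24 h, and 41.5 and 41.5 at 48 h. The 3 groups were apart in order of time with almost no spread inside them. Lin28b rose by 1.45 (SE 0.04, limma adjusted p = 2.27e-07) at 24 h and by a further 0.71 (adjusted p = 5.17e-06) at 48 h. Lin28a made up 59.2% of the summed Lin28 TPM in 2i, 90.5% at 24 h and 85.5% at 48 h, so the make-up of the pair moved toward Lin28a and then slightly back.

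Hmga1 was at 492 and 514 TPM in 2i, 1196 and 1207 at 24 h, and 817 and 814 at 48 h. It rose by 1.26 (SE 0.03, limma adjusted p = 1.23e-07) and then fell by 0.56 (adjusted p = 3.45e-06), and its groups did not overlap. Near-identical sequence elsewhere in the genome may share its reads, so the level of Hmga1 is uncertain in every table.

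Hmga2, the member studied by ChIP in the series, was late. Its values were 4.72 and 4.64 TPM in 2i, 6.12 and 5.55 at 24 h, and 91.3 and 90.3 at 48 h. The 24 h libraries were barely above 2i, and the 48 h libraries stood far above both. Hmga2 rose by 0.27 (SE 0.05, limma adjusted p = 0.00336) in the first 24 h and by 3.75 (SE 0.05, adjusted p = 8.73e-08) in the next 24 h, a ratio of means of 15.6. Over the same step the 9 fibroblast markers on the list summed to 5.31 and 5.73 TPM at 24 h and 39.5 and 39.0 at 48 h, with 6 of 7 tested rising and Dcn falling. The mesoderm sum went from 1.98 and 1.71 TPM to 8.92 and 10.2. Primitive endoderm went from 6.62 and 6.55 to 21.2 and 24.9, and trophoblast from 6.38 and 5.92 to 18.5 and 19.5. Neuroectoderm went from 44.4 and 44.1 to 98.95 and 94.74. The formative sum fell from 1052 and 1046 to 455 and 448, and the core pluripotency sum from 2230 and 2280 to 1096 and 1075. The part of these cell types or states in the rise of Hmga2 was not tested.

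The Igf2bp genes did not move as a family. Igf2bp3 was at 39.3 and 39.2 TPM in 2i, 51.4 and 51.0 at 24 h, and 92.2 and 91.4 at 48 h, and it rose by 0.38 and then 0.83 (limma adjusted p = 2.18e-05 and 1e-06). Igf2bp1 was at 134 and 144, 187 and 176, and 207 and 207 TPM, and it rose by 0.38 (adjusted p = 0.000216) and then 0.19 (adjusted p = 0.00727). That last call of Igf2bp1 was lost under median-of-ratios scaling, at 0.04 (adjusted p = 0.379). Igf2bp2, the member known as a target of Hmga2, went the other way: 61.4 and 61.4 TPM in 2i, 29.9 and 30.5 at 24 h, and 28.2 and 29.4 at 48 h.

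Igf2bp2 fell by 1.00 (SE 0.04, limma adjusted p = 7.51e-07) in the first 24 h. While Hmga2 rose, between 24 and 48 h, Igf2bp2 changed by -0.07 (adjusted p = 0.136), or by -0.21 (adjusted p = 0.00178) after scaling. Igf2bp2 therefore took 25.6% of the summed family TPM in 2i, 11.5% at 24 h and 8.79% at 48 h, while Igf2bp3 went from 16.4% to 19.5% and 28.1%. Trim71 was at 26.4 and 26.5 TPM in 2i, 44.2 and 43.1 at 24 h, and 44.0 and 46.5 at 48 h. Trim71 rose by 0.70 (SE 0.04, limma adjusted p = 5.06e-06) in the first step and changed by 0.05 (adjusted p = 0.29) in the second, where its libraries overlapped.

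From 24 to 48 h, 4 members rose (Hmga2, Lin28b, Igf2bp1 and Igf2bp3), Hmga1 fell and 3 did not pass, when 74.2% of all genes did, 45.2% up and 28.9% down. From 2i to 48 h, 7 members rose and Igf2bp2 fell, when 75.9% of all genes passed (45.1% up and 30.8% down), with a median of 0.98 over the members and 0.11 over all genes. These 3 comparisons share libraries and are not independent of each other.

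**Figure D1:**
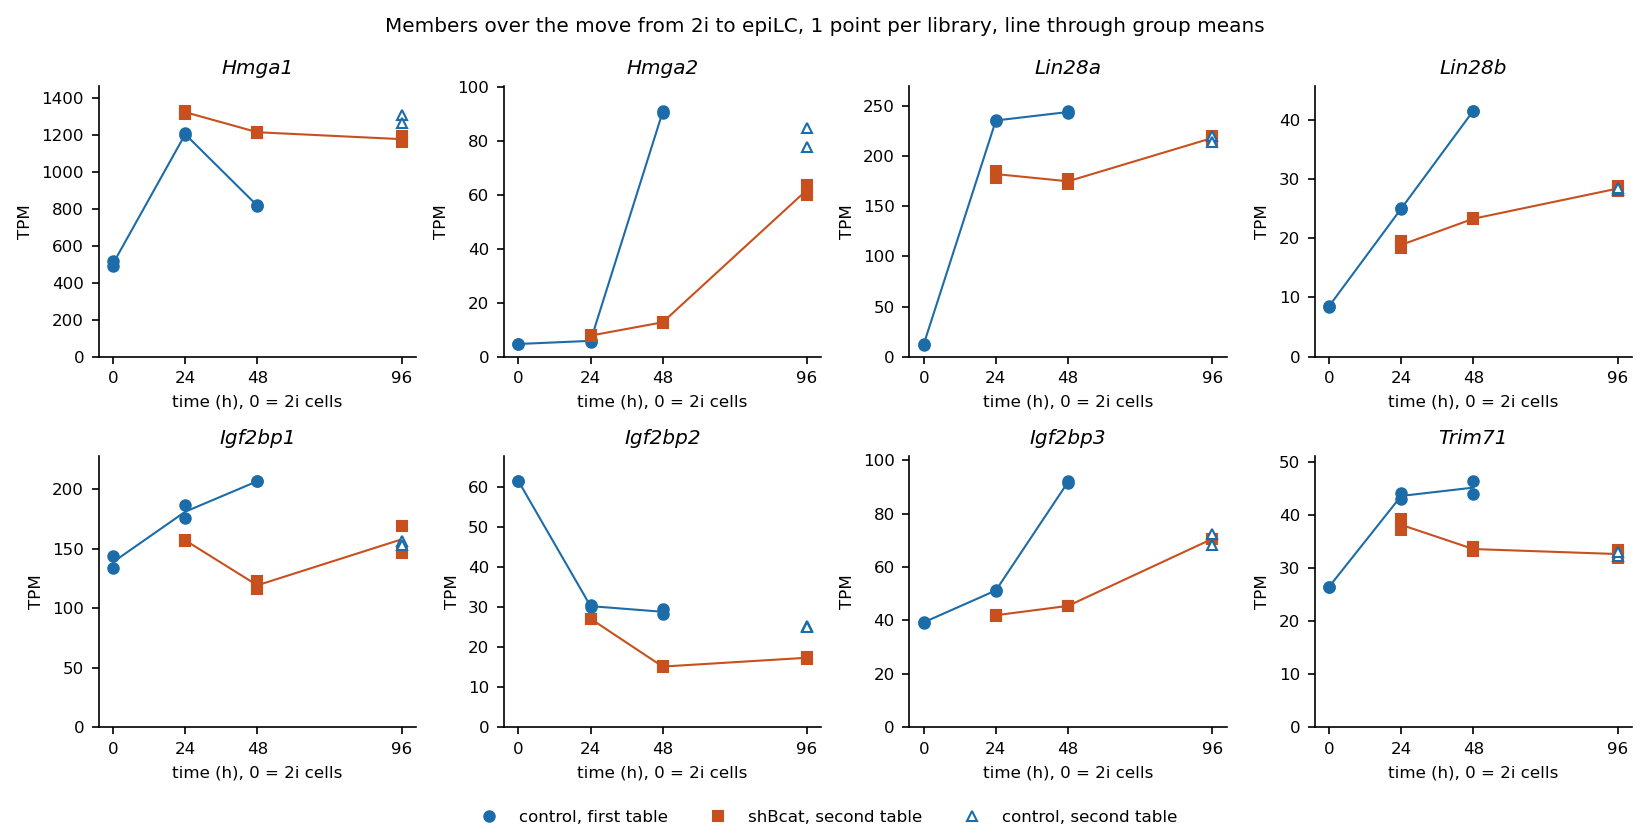
TPM of each member against time, with 1 point per library and a line through the group means. Blue circles are the control table (2i at 0 h, epiLC at 24 and 48 h), orange squares shBcat epiLC and open triangles control epiLC at 96 h, both from the other table, so heights across the tables were not tested. Hmga2 stands at 90.3 and 91.3 TPM in control epiLC at 48 h and at 12.51 and 12.95 in shBcat epiLC at 48 h.

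Genes around the axis were counted by list in the same step from 2i to 48 h, where 75.9% of all genes passed (45.1% up and 30.8% down, median 0.11), so that shares called near this are background. Of 17 genes of let-7 maturation and Lin28 cofactors, 14 rose and 2 fell (median 0.37). Tut4, the uridylase that Lin28a recruits to let-7 precursors, rose from 44.4 to 97.7 TPM (1.12, limma adjusted p = 8.31e-07), and Prkra, a Dicer cofactor, from 14.2 to 27.1 (0.88, adjusted p = 3.7e-06). Of 26 other let-7 target genes tested, 20 rose and 2 fell (median 0.62), among them Myc, a growth-promoting transcription factor (0.675 to 33.7 TPM), and Irs2, an adaptor of insulin signalling (2.82 to 59.9 TPM).

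The Igf2 axis list, which holds Igf2, its regulators and receptors, and transcripts bound by the Igf2bp proteins, had 10 of 12 up and 1 down (median 1.18). Igf2, the growth factor whose messenger RNA gave the Igf2bp family its name, was at 5.04 TPM in 2i, 3.50 at 24 h and 61.6 at 48 h. H19, the non-coding RNA of the same imprinted locus, was at 10.7, 3.20 and 79.1 TPM. Both fell in the first step and rose in the second, by 3.80 for Igf2 and 4.25 for H19 (limma adjusted p = 7.92e-08 and 1.94e-07), the step in which Hmga2 rose. All 12 other high mobility group genes rose (median 0.52), and of 10 Trim71 partners and targets 4 rose and 4 fell (median 0.02), a share called near the 75.9% of all genes. Cdkn1a, a cell cycle inhibitor that Trim71 is reported to repress, fell from 133 to 90.3 TPM (-0.55, adjusted p = 9.28e-06).

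The same lists were counted in each step, against 76.0% of all genes called in the first and 74.2% in the second. Let-7 maturation genes had 9 up and 7 down, then 9 up and 6 down, and let-7 targets 16 up and 8 down, then 12 up and 7 down. The Igf2 list had 4 up and 7 down and then 10 up and 1 down, with medians of -0.48 and 1.56. High mobility group genes had 7 up and 1 down, then 5 up and 3 down, and the Trim71 list 5 up and 5 down, then 6 up and 1 down.

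The shBcat epiLC series asked whether the same genes moved with β-catenin knocked down. From 24 to 48 h, 2 members rose and 4 fell, when 33.4% of the 15304 genes tested passed (15.7% up and 17.8% down), and the median was -0.09 over the members and -0.02 over all genes. From 48 to 96 h, 6 rose and none fell, when 35.0% of all genes passed, 25.2% up and 9.83% down (medians 0.30 and 0.09). From 24 to 96 h, 4 rose and 3 fell, when 53.4% of all genes passed, 32.8% up and 20.6% down (medians 0.13 and 0.07).

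Hmga2 was at 7.93 and 7.66 TPM at 24 h, 12.51 and 12.95 at 48 h, and 59.9 and 63.8 at 96 h. Each later group stood above the one before, and the greater part of the rise fell after 48 h. Hmga2 rose by 0.64 (SE 0.07, limma adjusted p = 0.000361) in the first step and by 2.19 (SE 0.07, adjusted p = 4.63e-06) in the second. The fibroblast marker sums were 4.19 and 4.72 TPM at 24 h, 5.28 and 6.41 at 48 h, and 9.69 and 10.7 at 96 h. Mesoderm, primitive endoderm, trophoblast and neuroectoderm sums also rose at each step, while core pluripotency and formative sums fell. The part of these was not tested.

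Side by side with the controls at 48 h in the other table, Hmga2 was at 12.51 and 12.95 TPM with shBcat and at 91.3 and 90.3 without it. At 24 h the values were 7.93 and 7.66 with shBcat and 6.12 and 5.55 without it. The tables were normalized apart and the knockdown cannot be told apart from the table at these times, so these gaps have no test. The fibroblast marker sum at 48 h also differed between the tables, at 5.28 and 6.41 TPM with shBcat and 39.5 and 39.0 in the control. Mesoderm sums with shBcat were 3.15 and 3.81 against 8.92 and 10.2 in the control. Primitive endoderm sums were 9.67 and 9.9 against 21.2 and 24.9, and neuroectoderm 51.1 and 55.9 against 98.95 and 94.74. Core pluripotency sums were 1435 and 1423 against 1096 and 1075, and trophoblast 17.2 and 18.2 against 18.5 and 19.5. Formative sums were 435 and 422 against 455 and 448 at 48 h, and 512 and 524 against 1052 and 1046 at 24 h. The part of these was not tested.

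Lin28a was at 179 and 186 TPM at 24 h in shBcat epiLC, 173 and 178 at 48 h, and 217 and 220 at 96 h. The first 2 groups lay close together, and the 96 h libraries were above both. Lin28a changed by -0.06 (limma adjusted p = 0.348) and then rose by 0.32 (SE 0.04, adjusted p = 0.00162). Lin28b was at 18.3 and 19.4 TPM, 23.2 and 23.3, and 27.9 and 28.8, a rise at each step of 0.29 and 0.27 (adjusted p = 0.00686 and 0.00934). The first of these 2 calls was lost without the 24 h replicate 1 (adjusted p = 0.061), and the second without either 48 h library (adjusted p = 0.0559 and 0.0566).

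Hmga1 was at 1312 and 1329 TPM at 24 h, 1215 and 1210 at 48 h, and 1192 and 1158 at 96 h. Its change of -0.12 from 24 to 48 h (limma adjusted p = 0.0409) was lost without any 1 of the 4 libraries (adjusted p = 0.158 to 0.213). From 24 to 96 h it fell by 0.17 (adjusted p = 0.00677), lost without the 24 h replicate 2 (adjusted p = 0.0631). Trim71 was at 37.2 and 39.2, 33.2 and 34.1, and 31.9 and 33.4 TPM. Its change from 24 to 48 h of -0.18 (adjusted p = 0.0424) was also lost without any 1 of the 4 libraries, and its change from 24 to 96 h of -0.22 (adjusted p = 0.0119) without the 24 h replicate 2 (adjusted p = 0.0931).

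Igf2bp2 fell from 27.1 and 27.0 TPM at 24 h to 14.9 and 15.3 at 48 h in shBcat epiLC, and stood at 17.5 and 17.1 at 96 h. The 24 h libraries were the highest and did not overlap the others. The change was -0.80 (SE 0.06, limma adjusted p = 6.66e-05), in a step where control epiLC of the other table showed -0.07. The small rise from 48 to 96 h, 0.18 (adjusted p = 0.0352), was lost without any 1 of the 4 libraries. Igf2bp1 dipped, from 158 and 157 TPM to 116 and 123 and then 147 and 169, with a change of -0.39 (adjusted p = 0.00403) and then 0.40 (adjusted p = 0.00432).

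Igf2bp3 was at 42.1 and 41.8 TPM at 24 h, 45.3 and 45.5 at 48 h, and 70.6 and 70.4 at 96 h. It changed by 0.11 (limma adjusted p = 0.117) in the first step and rose by 0.62 (SE 0.05, adjusted p = 0.000163) in the second. The control table ends at 48 h, so later changes cannot be set against it.

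**Figure D2:**
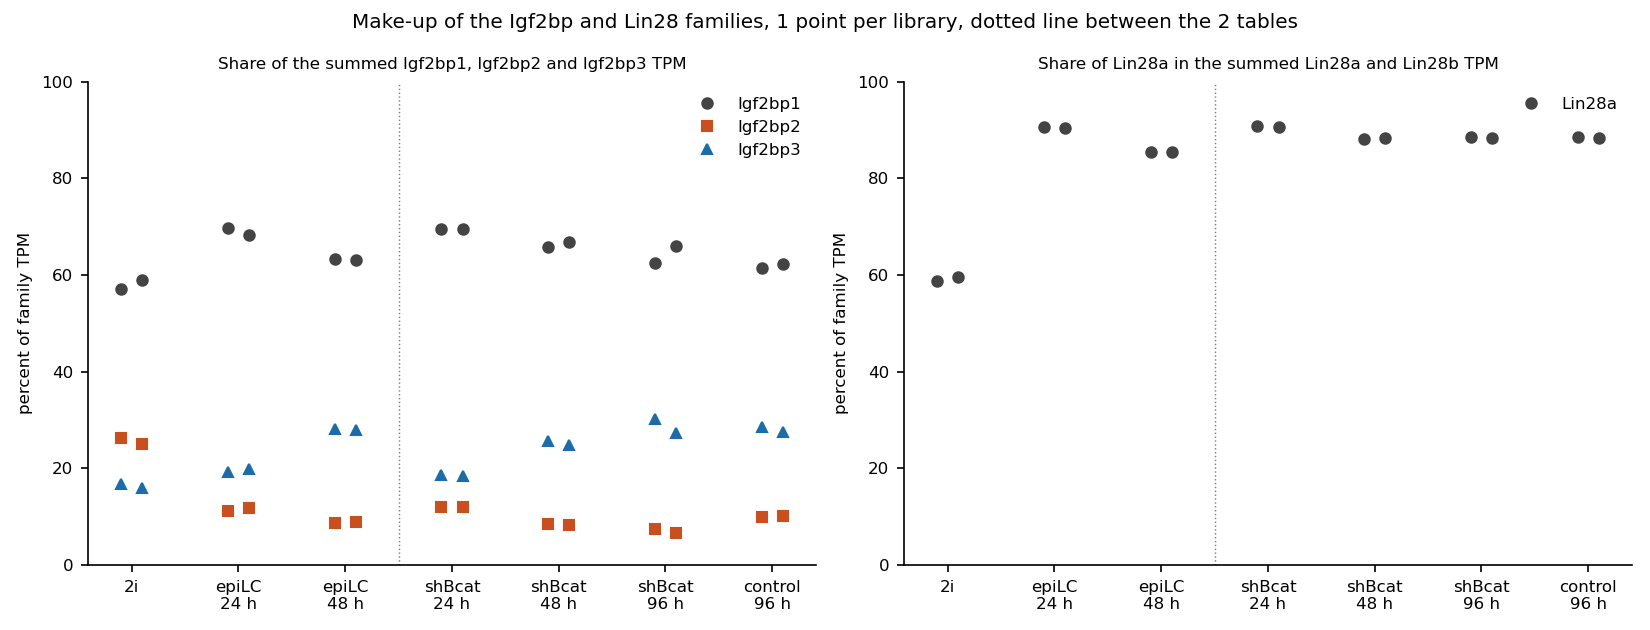
Share of each Igf2bp gene in the summed Igf2bp TPM (left) and of Lin28a in the summed Lin28 TPM (right), 1 point per library, with the 2 tables parted by the dotted line. Igf2bp2 goes from 25.1% and 26.2% in 2i to 8.60% and 8.98% in control epiLC at 48 h, and is at 6.66% and 7.46% in shBcat epiLC at 96 h against 9.95% and 10.2% in control.

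At 96 h shBcat and control epiLC lie in the same table, so the 2 could be tested against each other. No hairpin is named for these controls, so effects of carrying a hairpin cannot be told apart from those of the β-catenin knockdown. Only Hmga2 and Igf2bp2 passed among the 8 members, both lower, when 4.82% of the 15304 genes tested passed, 2.29% up and 2.54% down. The median was 0.00 over the members and -0.01 over all genes.

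Hmga2 was at 84.9 and 77.7 TPM in control and 59.9 and 63.8 in shBcat epiLC. Both knockdown libraries were below both controls, at 81.3 ± 5.11 against 61.9 ± 2.75 TPM (SD, n = 2 each). The change was -0.39 (SE 0.07, limma adjusted p = 0.0179), lost without control replicate 1 (-0.32, adjusted p = 0.0927) or shBcat replicate 1 (-0.34, adjusted p = 0.0811). Marker sums of other cell types differed in both directions. Mesoderm markers summed to 6.11 and 5.57 TPM in control and 3.85 and 4.09 in shBcat, and the 1 tested, T (brachyury), fell (-0.74). Neuroectoderm markers summed to 66.4 and 69.9 TPM in control and 80.8 and 79.1 in shBcat, with 1 of 3 tested rising. Fibroblast markers summed to 9.4 and 9.61 TPM and to 9.69 and 10.7, with 1 of 6 tested rising, and 1 primitive endoderm and 1 trophoblast marker fell. Their part in the fall of Hmga2 was not tested.

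Igf2bp2 was at 25.2 and 25.1 TPM in control and 17.5 and 17.1 in shBcat epiLC. The groups were well apart, and the change of -0.52 (SE 0.06, limma adjusted p = 0.00261) held without each library in turn. Hmga1 was lower in both shBcat libraries, 1192 and 1158 against 1303 and 1263 TPM, with a change of -0.13 (adjusted p = 0.116).

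The other 5 members overlapped between shBcat and control at 96 h. How many of all genes overlapped was not counted, so this is not read as a result about the members. Lin28b, at 27.9 and 28.8 against 28.2 and 28.4 TPM, changed by 0.00 with a 95% interval of -0.13 to 0.14. Lin28a, at 217 and 220 against 220 and 214 TPM, changed by 0.01 (-0.09 to 0.11). Igf2bp1 gave 0.02 (-0.14 to 0.19), Igf2bp3 0.01 (-0.11 to 0.12) and Trim71 -0.00 (-0.13 to 0.13).

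Around the axis at 96 h, none of 17 let-7 maturation genes, 26 let-7 targets and 12 high mobility group genes passed with limma, where 4, 7 and 3 were under 0.05 before adjustment. Over all genes 4.82% passed, 2.29% up and 2.54% down, a share at which lists of this size hold few calls or none. In the Igf2 list 2 of 12 rose, and among them H19 rose from 206 to 352 TPM (0.77, adjusted p = 0.00194). Igf2 itself was at 45.6 and 52.3 TPM (0.19, adjusted p = 0.518). Among the Trim71 list Egr1, an immediate early transcription factor, fell from 14 to 4.14 TPM (-1.56, adjusted p = 0.00261). The median change of each of these 5 lists lay between -0.08 and -0.02, near the -0.01 of all genes.

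Within the shBcat series, H19 and Igf2 rose from 24 to 48 h by 1.68 and 1.38 (limma adjusted p = 1.56e-05 and 0.000363), in a list with 5 of 12 up and 1 down (median 0.21). From 48 to 96 h 9 of the 12 rose (median 0.53), with Plagl1, a zinc finger regulator of imprinted genes, from 5.16 to 25.5 TPM (2.10, adjusted p = 9.1e-06). Of the 26 let-7 targets 8 rose and 4 fell in the first step and 11 rose and 1 fell in the second, not far from the 33.4% and 35.0% of all genes called. Of the 17 let-7 maturation genes 3 rose and 2 fell and then 7 rose and 2 fell, and of 12 high mobility group genes 6 rose and 1 fell and then 5 rose. The Trim71 list had 2 up and 1 down of 10, then 1 up and 1 down. From 24 to 96 h, when 53.4% of all genes passed, the lists in the same order had 16 up and 7 down, 8 and 4, 7 and 1, and 3 and 2, and the Igf2 list 11 and 1. Mycn, a member of the Myc family, fell from 43.6 to 24.5 TPM (-0.81, adjusted p = 0.000272) in the first step.

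The knockdowns in naive V6.5 cells asked which members depend on each protein while cells stay in 2i. With shBcat, Lin28b alone rose and none fell, when 8.71% of the 14407 genes tested passed, 3.51% up and 5.21% down. The median was 0.20 over the members and 0.01 over all genes, on the log2(FPKM + 1) scale. All 3 knockdowns share the 6 shGFP libraries. Some markers of cell state moved with shBcat too: Otx2, a formative factor, rose from 1.31 to 6.6 FPKM (1.73, limma adjusted p = 0.000111), 1 of 8 formative markers tested. The naive factors Tfcp2l1 (62.2 to 27 FPKM) and Tbx3 (25.8 to 11.8 FPKM) fell, 2 of 12 naive markers. Sox1, a neuroectoderm factor, rose from 0.343 to 2.28 FPKM, 1 of 3 neuroectoderm markers tested. Of 3 trophoblast markers tested 1 rose and 1 fell, and the 1 mesoderm marker tested fell (-0.80). The formative sums were 56.4 and 60.7 FPKM with shBcat and 36.5 to 58.7 in shGFP, and the naive sums 884 and 895 against 826 to 1196. Their part in the levels of the Lin28 genes was not tested.

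Lin28b ranged in shGFP from 2.98 to 6 FPKM with a median of 5.29, and was at 10.7 and 10.3 with shBcat. The lowest values were shGFP 5 and 6, and both knockdown libraries stood above all 6 controls. Lin28b rose by 1.03 (SE 0.23, limma adjusted p = 0.0189), from 4.76 ± 1.31 (SD, n = 6) to 10.5 ± 0.283 FPKM (n = 2). The call was lost without shBcat replicate 1 (adjusted p = 0.212) or 2 (0.187), and with libraries averaged in their pairs (0.988), where no gene of the table passed.

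Lin28a ranged from 13.8 to 19.1 FPKM in shGFP with a median of 17.0, and was at 38.4 and 37.3 with shBcat. The shBcat libraries were above all controls, but the change of 1.14 (SE 0.42) did not pass (limma adjusted p = 0.134). That fit pools the spread of all groups, shHP1r included, where Lin28a was at 60.1 and 11.8 FPKM (0.67, adjusted p = 0.398). Lin28a with shHP1r rests on 1 library: it was 1.79 (adjusted p = 0.000596) without shHP1r 2 and -0.46 (adjusted p = 0.422) without shHP1r 1. The same 2 libraries differed in naive marker sum, 795 and 1257 FPKM, and in formative marker sum, 60.7 and 38.0, and the part of these in Lin28a was not tested. With shGFP and shBcat fitted alone the change of Lin28a was 1.14 with adjusted p = 0.00134. Lin28a stood at 13.3 and 9.24 FPKM with shE2F6, below all controls (-0.54, adjusted p = 0.358).

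Igf2bp2 ranged from 10.4 to 17.4 FPKM in shGFP with a median of 13.6. It was at 20.7 and 20.9 with shBcat, 23.6 and 20.0 with shE2F6, and 10.8 and 8.78 with shHP1r. The first 2 knockdowns stood above all controls and shHP1r overlapped them, with changes of 0.58 (limma adjusted p = 0.0847), 0.64 (0.0795) and -0.44 (0.198). With a term for the mitochondrial share, Igf2bp2 with shE2F6 was 0.32 (adjusted p = 0.249). The Igf2bp2 levels in shGFP followed the pairs, lowest in 1 and 2 and highest in 3 and 4, the libraries with the high mitochondrial share. With the same term, Igf2bp2 passed with shBcat (0.75, adjusted p = 0.00199), and it passed without shGFP 4 (0.65, adjusted p = 0.0484).

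Igf2bp3 ranged from 24.4 to 33.1 FPKM in shGFP with a median of 27.3, and was just above all of them with shBcat, at 34.7 and 33.9 (0.29, limma adjusted p = 0.22). With shE2F6 it was at 25.3 and 29.0, and with shHP1r at 21.8 and 26.9, both overlapping the controls. Igf2bp1 ranged from 47.8 to 74.1 FPKM in shGFP with a median of 58.5, and was at 64.1 in both shBcat libraries. It was at 40.5 in both shE2F6 libraries, below all controls (-0.54, adjusted p = 0.113), and at 35.1 and 57.4 with shHP1r.

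Hmga1 ranged from 194 to 233 FPKM in shGFP with a median of 204, and was at 205 and 215 with shBcat, inside that range. It was at 160 and 144 with shE2F6 and 147 and 160 with shHP1r, below all controls in both. With shHP1r, Hmga1 fell by 0.44 (SE 0.11, limma adjusted p = 0.0333), the only member to pass when 7.59% of genes did, 5.89% up and 1.70% down. The call was lost without shHP1r 1 (adjusted p = 0.331), shHP1r 2 (0.0568) or any of shGFP 3 to 6 (0.0515 to 0.0577), and in the fit of these 2 groups alone (0.106).

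With shE2F6 no member passed with limma, when 1.06% of genes did (0.410% up and 0.652% down), and 4 were under 0.05 before adjustment. Hmga1 came nearest (-0.45, adjusted p = 0.0611). Both shE2F6 libraries lay above the control range for Igf2bp2 and below it for Hmga1, Lin28a, Igf2bp1 and Trim71. The share of all genes outside the control range was not counted, so this is not read as a result about the members. The median of all genes was itself -0.20 here, and -0.01 after median-of-ratios scaling, a shift of 0.19. Against shGFP 3 and 4, which share the high mitochondrial share, shE2F6 had Hmga1 at 160 and 144 against 223 and 233 FPKM and Igf2bp2 at 23.6 and 20.0 against 17.0 and 17.4. Without shGFP 3, Hmga1 (adjusted p = 0.0263), Igf2bp2 (0.0262) and Igf2bp1 (0.046) passed, and without shGFP 4, Hmga1 (0.0358) and Igf2bp2 (0.0351). Those 2 libraries are the only controls with the high mitochondrial share, so each of these fits drops a control that shares it with shE2F6. With a term for that share, Hmga1 passed (-0.58, limma adjusted p = 0.00616) and Igf2bp2 did not (0.32, adjusted p = 0.249).

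Hmga2 was near the floor of this table, at 0.486 to 0.824 FPKM in shGFP with a median of 0.71. It was at 0.624 and 0.648 with shBcat, 0.632 and 0.41 with shE2F6, and 1.22 and 1.07 with shHP1r. Hmga2 reached the minimum of 1 only in the 2 shHP1r libraries and so entered the fit through the group where it was high, and its change there (0.35, limma adjusted p = 0.063) supports nothing. Trim71 ranged from 20.7 to 26.4 FPKM in shGFP with a median of 22.3, and was at 23.6 and 25.0 with shBcat and 30.8 and 24.1 with shHP1r, overlapping the controls. With shE2F6 it was at 19.3 and 18.2, below all controls (-0.29, adjusted p = 0.133).

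**Figure D3:**
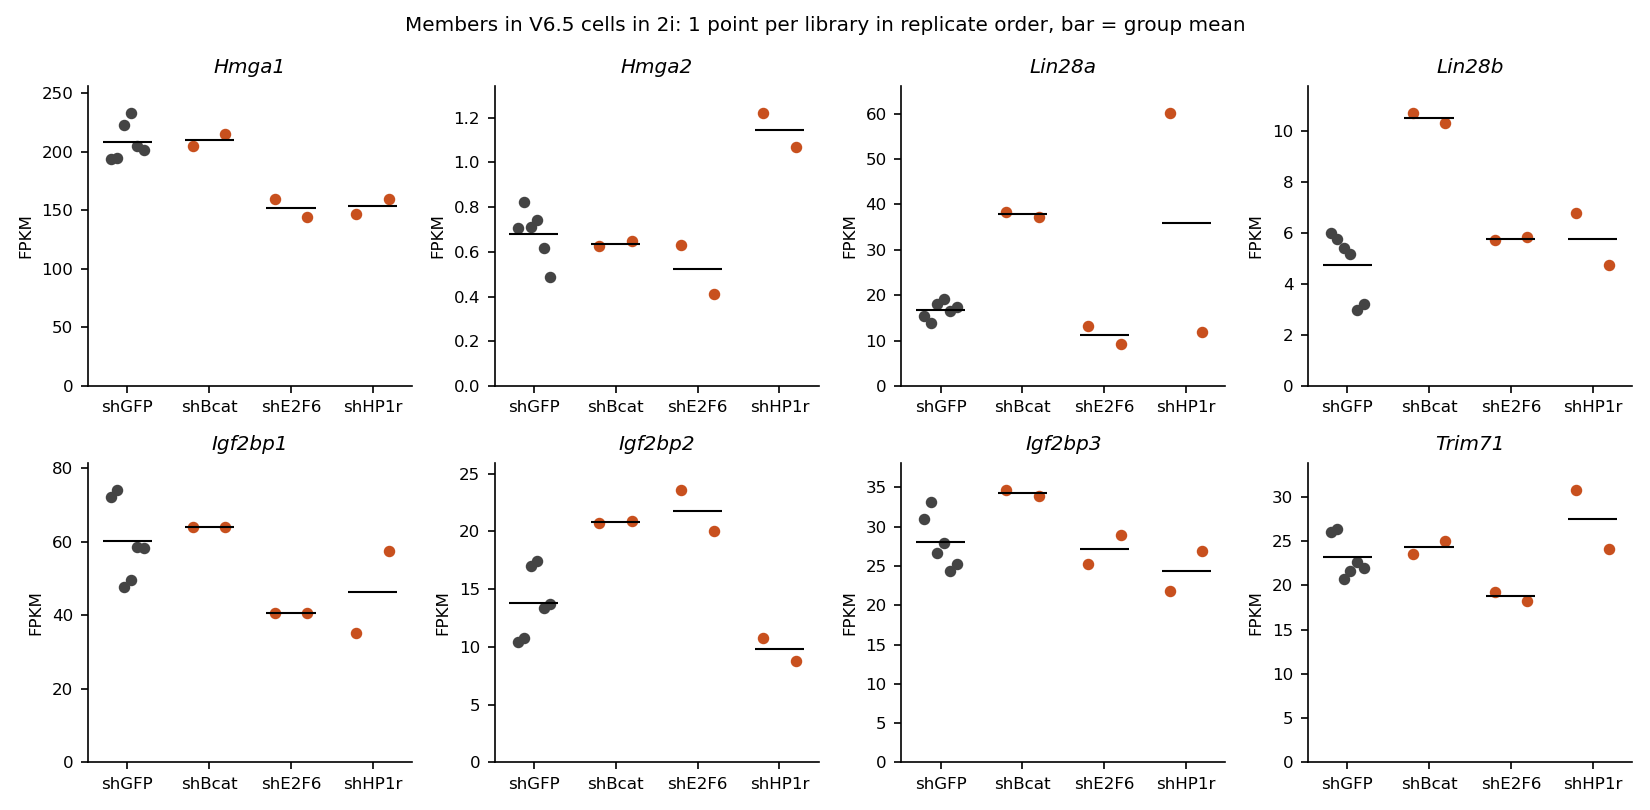
FPKM of each member in V6.5 cells in 2i, 1 point per library in replicate order, grey for shGFP and orange for knockdowns, bars at group means. Lin28b is at 10.7 and 10.3 FPKM with shBcat, above the highest control of 6, and the 2 shHP1r libraries of Lin28a lie at 60.1 and 11.8.

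In these 2i knockdowns the lists around the axis are set against the share of all genes called. With shBcat it was 8.71% (3.51% up and 5.21% down), with shHP1r 7.59% (5.89% up and 1.70% down) and with shE2F6 1.06%. Of the 10 Igf2 list genes tested, 1 rose and 1 fell with shBcat and 2 rose with shHP1r. With shBcat, 0 of 17 let-7 maturation genes passed with limma (2 before adjustment), and of 25 let-7 targets 4 rose and Cdk6, a cell cycle kinase, fell from 3.26 to 0.868 FPKM (-1.18, adjusted p = 0.00107). Mycn rose from 17.7 to 27.0 FPKM (0.59, adjusted p = 0.00471). H19 rose with shBcat from 2.86 to 10.7 FPKM (1.64, adjusted p = 0.00311) and with shHP1r to 11.2 (1.69, adjusted p = 0.00191), while Plagl1 fell with shBcat from 24.0 to 2.59 FPKM (-2.78, adjusted p = 1.58e-05). With shHP1r Igf2 rose from 2.98 to 9.64 FPKM (1.49, adjusted p = 0.0178) and Hmgn3, a nucleosome-binding protein, from 2.33 to 9.31 (1.64, adjusted p = 0.00412). Also with shHP1r, Ago2, the slicer of small RNA silencing and a member of both the let-7 maturation and Trim71 lists, fell from 31.8 to 21 FPKM (-0.63, adjusted p = 0.0438), and Nras, a let-7 target, from 23.4 to 13.9 (-0.71, adjusted p = 0.00189). With shE2F6 only Irs2 passed in these 5 lists, from 3.03 to 1.07 FPKM (-0.95, adjusted p = 0.0429).

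In QKO cells shBcat changed 1 member, Hmga2, which fell, when 2.15% of the 15562 genes tested passed, 0.585% up and 1.56% down. The median was -0.08 over the members and -0.04 over all genes. Hmga2 was at 7.05, 11.6 and 5.57 TPM in shGFP replicates 1 to 3 and at 2.81, 2.19 and 1.94 in shBcat. Every shBcat library was below every control, at 2.31 ± 0.448 against 8.07 ± 3.14 TPM (SD, n = 3 each). The change was -1.41 (SE 0.24, limma adjusted p = 0.046). It was lost without shBcat 1 (adjusted p = 0.0511), 2 (0.162) or 3 (0.136) or shGFP 1 (0.137), while the change stayed between -1.61 and -1.14 with any 1 library left out.

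Fibroblast and primitive endoderm marker sums were lower with shBcat in the QKO libraries, as Hmga2 was. The 9 fibroblast markers, all present in each group, summed to 393, 691 and 273 TPM in shGFP replicates 1 to 3 and to 72.5, 80.8 and 89.7 in shBcat. Of these 9, 5 fell and 4 did not pass, with Postn, a matrix protein of fibroblasts, at 10.9 against 1.57 TPM (-2.16, limma adjusted p = 0.0198) and Dcn, decorin, at 33.5 against 6.45 (-2.13, adjusted p = 0.0408). The shGFP libraries had the same order in the fibroblast sum as in Hmga2, and the shBcat libraries had the opposite order. The 7 primitive endoderm markers summed to 31.6, 48.7 and 27.5 TPM in shGFP and to 20.4, 15.1 and 14.2 in shBcat. Their sum had the same order as Hmga2 within both groups, and of the 4 markers tested 0 passed. The part of these cells in the fall of Hmga2 was not tested.

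The other 7 members did not pass in QKO cells. Lin28b was lower in all 3 shBcat libraries, 3.31, 3.13 and 3.09 against 4.04, 4.5 and 3.66 TPM, a change of -0.28 (limma adjusted p = 0.122, 95% interval -0.51 to -0.05 before adjustment). Igf2bp2 was higher in all 3, at 63.6, 70.6 and 71.9 against 59.1, 57.7 and 62.0 TPM (0.20, adjusted p = 0.0782). Trim71 was lower in all 3, at 41.4, 38.0 and 34.5 against 43.0, 41.7 and 45.3 TPM (-0.19, adjusted p = 0.136).

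Hmga1 was listed at 330, 348 and 436 TPM with shBcat and at 221, 303 and 289 with shGFP in QKO cells, and it did not pass (limma adjusted p = 0.122). Because its reads may be shared, no direction is read from these values. The remaining 3 overlapped, and the share of all genes that did so was not counted. Lin28a was at 36.8, 32.4 and 28.8 against 32.7, 32.6 and 33.9 TPM (-0.02, interval -0.22 to 0.18). Igf2bp1 was at 228, 208 and 184 against 221, 224 and 236 TPM (-0.14), and Igf2bp3 at 52.0, 56.5 and 54.4 against 52.1, 48.3 and 52.2 TPM (0.09).

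**Figure D4:**
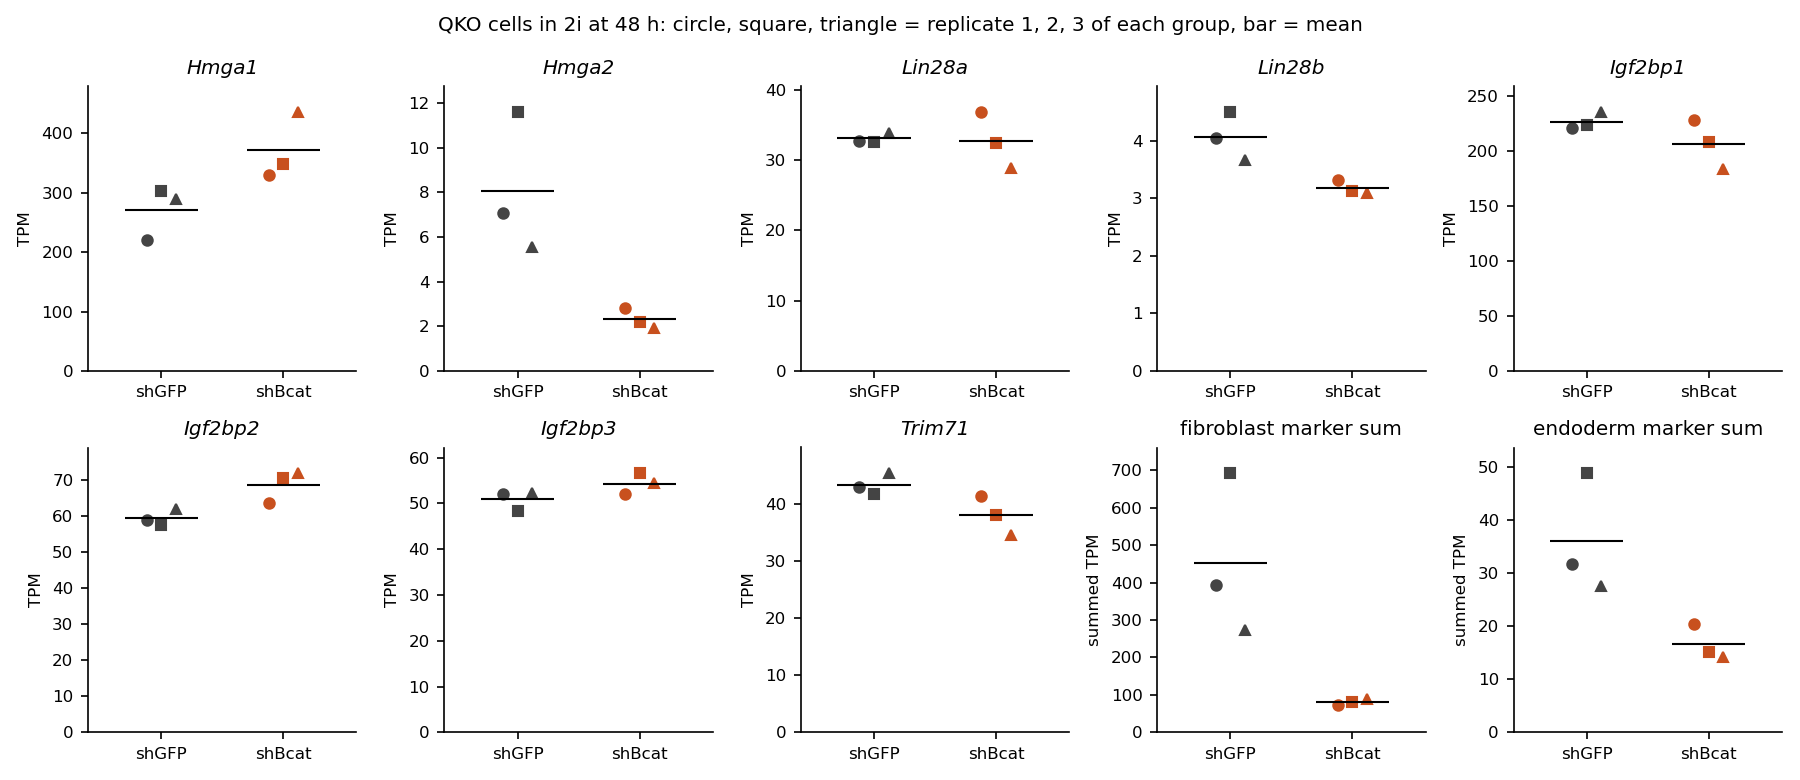
TPM of each member and summed TPM of fibroblast and primitive endoderm markers in QKO cells, with circle, square and triangle for replicates 1, 2 and 3 and bars at group means. Hmga2 and both marker sums are highest in shGFP replicate 2 (11.6, 691 and 48.7 TPM) and lower in all 3 shBcat libraries.

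In the lists around the axis in QKO cells, 17 let-7 maturation genes and 26 let-7 targets were tested. The Igf2 and high mobility group lists had 12 each tested, and the Trim71 list 9. Of all these only Ccnd1 passed, a let-7 target that encodes cyclin D1, from 75.0 to 58.8 TPM (-0.34, limma adjusted p = 0.0481). Over all genes 2.15% passed, 0.585% up and 1.56% down, so this 1 call is near background. Igf2 was at 2.66 and 1.56 TPM (-0.50, adjusted p = 0.137) and H19 at 7.29 and 4.21 (-0.65, adjusted p = 0.127).

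**Figure D5:**
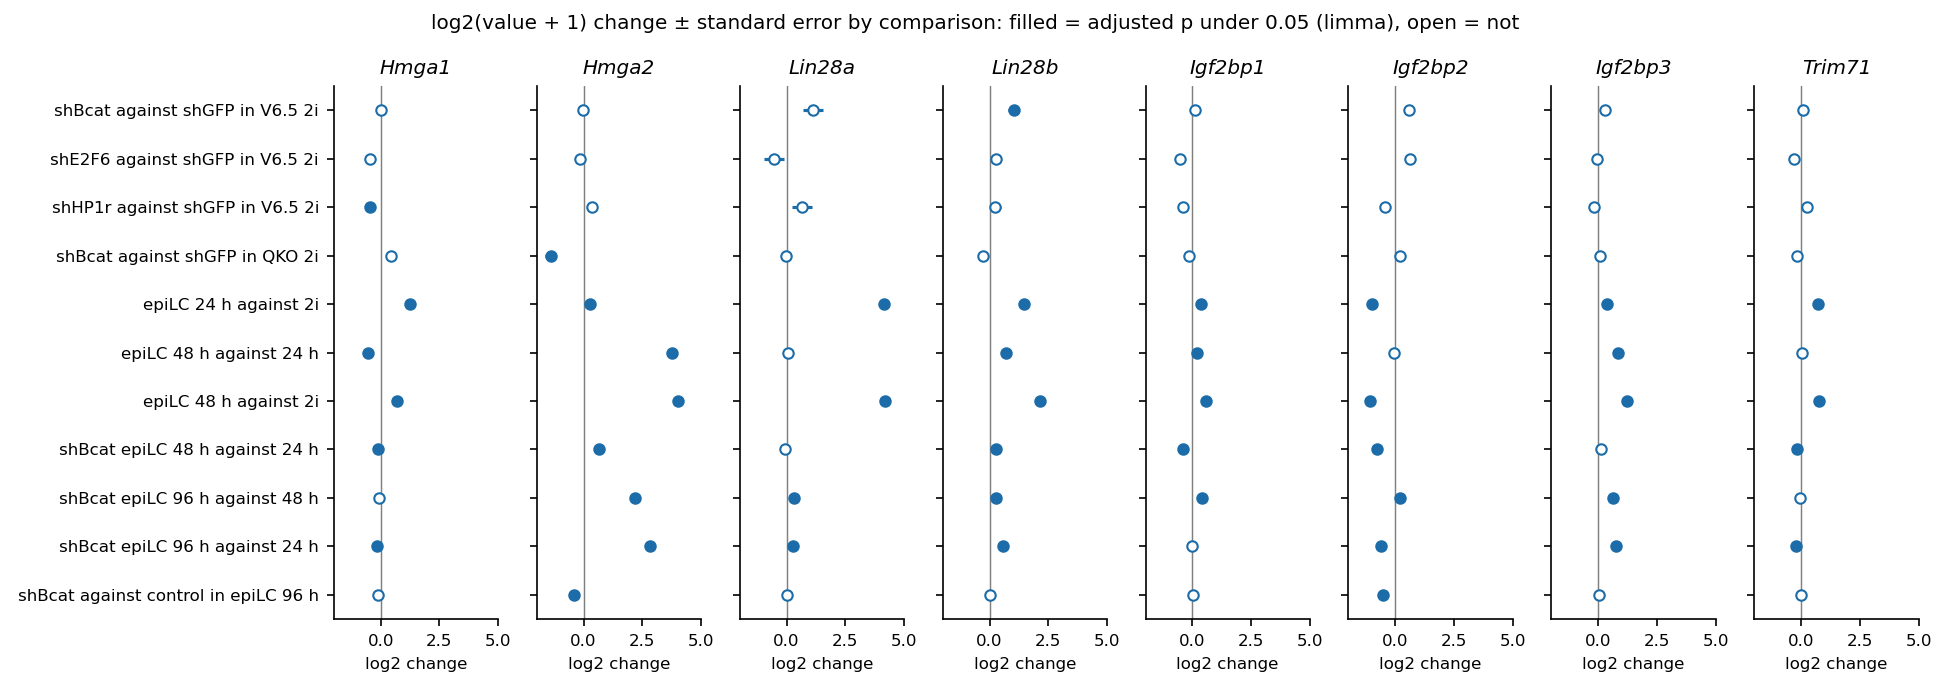
Change of each member on the log2(value + 1) scale with its standard error in the 11 comparisons, filled where the limma adjusted p was under 0.05 and open otherwise. Hmga2 reaches 3.75 in control epiLC from 24 to 48 h and 0.64 in shBcat epiLC over the same hours, and Lin28a reaches 4.15 by 24 h.

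The levels of Lin28b and Hmga2 over the 7 group means of the 2 epiLC tables were set against those of 12402 other genes. Likeness was the root mean square difference of log2(TPM + 1), each gene centred on its own mean within each table, and it is a description over 7 groups that lie in 2 tables. Closest to Hmga2 were Nuak1 (0.16), Dok5 (0.23), Trp53i11 (0.27), Cnn2 (0.29) and Meox1 (0.30). Nuak1, an AMPK-related kinase, was at 1.08 TPM in 2i, 1.1 and 27.5 in control epiLC at 24 and 48 h, 2.76, 3.77 and 19.9 in shBcat epiLC, and 23.4 in control at 96 h. Closest to Lin28b were Tro (0.05), Ptpn3 (0.06), Panx1 (0.06), Zswim4 (0.10) and Ppp1r14c (0.10). Tro, trophinin, went from 7.18 TPM in 2i to 21.0 and 32.8 in control epiLC, with 24.7, 29.9 and 33.4 in shBcat epiLC and 34.5 in control at 96 h.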

How the data were processed

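The authors deposited 1 table in FPKM and 3 in TPM. Per the submitters' processing notes, reads were demultiplexed with bcl2fastq 2.18 and aligned to mm10, with TopHat2 2.0.13 and Cufflinks 2.2.1 for the FPKM values and STAR, RSEM and Bowtie2 for the TPM values. The versions of STAR, RSEM and Bowtie2 are not given in the sources used here. RNA was taken with TRIzol and treated with DNase, per the labels' protocols. Of the FPKM columns, 1 named for a second shHP1r library held values below 0 and was not used.

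Each table was fitted on its own with limma 3.58.1 (R 4.3.3) on log2(value + 1), with all its libraries and a term per group, trended and robust moderation, and genes at 1 or more in at least 2 libraries. The pseudocount of 1 understates the change of low genes. P-values were Benjamini-Hochberg adjusted over all genes tested, with a threshold of 0.05. The FPKM and TPM values keep no read totals, so no counting interval was given. The procedure was tested on simulated data.

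The members and gene lists were chosen with earlier results of these data known. All 8 members are named. Of each list, counts are given where genes passed, and genes are named from the up to 3 of smallest p past the threshold in a comparison, and Ctnnb1, E2f6 and Cbx3 check the labels. For Hmga2 and Lin28b the 5 genes nearest in level over the group means are named. A few list genes outside that rule are named beside them (H19 and Igf2 where they did not pass or ranked lower, and Dcn at 48 h), chosen after their values were seen. Alternatives covered the pseudocount, filter, moderation, scaling, a replicate block, the compared groups alone, averaged library pairs, the mitochondrial share and each library left out. A few results are not reported here.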

Additional observations from a re-analysis of the deposited data

Results flagged for a closer look

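The effect of shBcat was set side by side in V6.5 and QKO cells, and the step from 24 to 48 h in control and shBcat epiLC. For 3 members the libraries of a group all lay above the reference in 1 setting and all below it in the other. The share of all genes with such a pattern was not counted. These differences were not tested, since the settings lie in separately normalized tables. With shBcat in 2i, Lin28b changed by 1.03 in V6.5 cells and by -0.28 in QKO cells. From 24 to 48 h, Lin28a changed by 0.05 in control epiLC and by -0.06 in shBcat epiLC, and neither value passed. Over the same hours Igf2bp1 changed by 0.19 in control and by -0.39 in shBcat epiLC. Under median-of-ratios scaling the control values were -0.10 for Lin28a (limma adjusted p = 0.0283) and 0.04 for Igf2bp1 (0.379). The opposite directions of these 2 members therefore depended on the scaling or were weaker with it.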

How the results depend on the processing

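The number of members past the threshold depended on the settings in the 2i knockdowns. In V6.5 cells only shGFP has replicates 3 to 6, so the replicate block there set each knockdown against shGFP 1 and 2 alone. For shE2F6 this left out shGFP 3 and 4, the controls with the high mitochondrial share, so it is not a test of pairing. For V6.5 shBcat it was 1, and 2 with the replicate block, with the compared groups alone or with the mitochondrial term, 0 with pairs averaged, and 0 to 2 with 1 library left out. For shE2F6 it was 0, and 1 with a minimum of 5 or the mitochondrial term, 4 with the replicate block, and 0 to 3 with 1 library left out. For shHP1r it was 1, and 2 with no filter, 0 with scaling, with the replicate block, alone or with pairs averaged, 3 with the mitochondrial term, and 0 to 1 with 1 library left out. Calls gained with no filter and with the mitochondrial term include Hmga2, which is near the floor there and supports nothing. With that term Hmga2 entered the fit only through the shHP1r libraries. For QKO the number was 1, and 0 with no filter, with no trend or robust moderation or with the replicate block, and 0 to 1 with 1 library left out. Deviations of same-numbered libraries correlated at -0.01, -0.04 and 0.13 in QKO and at 0.28 in epiLC at 96 h. With 2 libraries a group both pairs must give the same correlation, so 0.28 is 1 value. The replicate block kept the count at 2 in epiLC at 96 h. With 2 pairs there and no label tying them, the numbers are taken as shared only.

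For shBcat epiLC from 24 to 48 h it was 6, and 3 to 4 with 1 library left out. At 96 h it was 2, and 1 with no filter or alone, and 1 to 2 with 1 library left out. Lin28a from 24 to 48 h in control epiLC turned from 0.05 to -0.10 under scaling. The cause of these shifts was not tested. Of 1205 alternative values of the members’ changes, 1133 kept their side of the threshold and 51 lost the call. Another 20 gained it with the same sign, and 1 gained it with the opposite sign. Among the 1133, a change of sign was not counted where neither value passed, as for Lin28a with shHP1r (0.67, and -0.46 without shHP1r 1). Genes called over all genes ranged with 1 library left out from 190 to 1223 for V6.5 shBcat (1255 with all), 14 to 4166 for shE2F6 (153), 290 to 1366 for shHP1r (1093), 8 to 964 for QKO (334), 2870 to 3038 for shBcat epiLC from 24 to 48 h (5115), 2611 to 4664 from 48 to 96 h (5360) and 279 to 453 at 96 h (738). With 2 libraries a group, a fit with 1 left out assumes that the lone library varies like the other groups. Depth is unknown, so low values such as Hmga2 in the FPKM table have no counting error.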
